A study of Homo sapiens with 6 samples.

Results

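The nuclear-encoded genes of the mitochondrial respiratory chain and ATP synthase were followed in 2 human pancreatic ductal adenocarcinoma (PDAC) cell lines treated with inhibitors of the retinoic acid receptor RARγ. Members were taken by gene symbol: entries beginning with NDUFA, NDUFB, NDUFC, NDUFS or NDUFV and a number, UQCR, COX and a number, SDHA to SDHD, or ATP5, with pseudogenes dropped. Of 53826 entries per library, 272 carried such a symbol, 166 were dropped as pseudogenes and 106 were kept. Of these 106, 95 could be placed in a complex: 36 in complex I, 4 in complex II, 9 in complex III, 28 in complex IV and 18 in complex V. The 95 comprise 83 subunits and 12 other proteins, namely 9 assembly factors of complex IV, the supercomplex factor COX7A2L, and ATP5S and ATP5SL. ATP5S and ATP5SL (current symbols DMAC2L and DMAC2) are no ATP synthase subunits and were counted in complex V by their listed names alone. The other 11 entries, set aside, were 4 named as antisense RNAs, 3 genes of the mitochondrial genome, 2 pseudogenes named otherwise and 2 read-through transcripts. NDUFA4 and NDUFA4L2 were counted in complex IV, where the NDUFA4 protein sits, despite their names.

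PK-1 and Panc-1 are established PDAC lines. Each line gave 3 RNA-seq libraries: cells kept as the control, cells treated for 24 h with RARγi-1 (the RARγ antagonist LY2955303), and cells treated with RARγi-2 (the antagonist MM11253). Both RARγi-2 libraries carry a treatment entry that reads RARγi-1, and they were assigned by their titles. The doses and the vehicle were not stated for RNA-seq itself. In the study's other assays of these lines the controls received DMSO and RARγi-2 was used at a higher concentration than RARγi-1, so the inhibitors are set side by side and not compared with each other. With 1 library per condition there are no replicates within a line, so no change within a line was tested. A test over both lines is given below. Both comparisons of a cell line share its control library. The authors deposited log2 values of TPM, a measure of transcript abundance that corrects for transcript length and library size, with 1 TPM as the lowest value, here called the floor. The ductal keratins KRT8, KRT18 and KRT19 were above the floor in all 6 libraries, CDH1 was at the floor in Panc-1, and all 4 endocrine and all 3 endothelial markers were at the floor throughout. Of the other marker lists, 4 of 5 acinar, 4 of 5 fibroblast and 2 of 4 immune markers (PTPRC and CD3E) were at the floor in all 6 libraries, with CD68 above it throughout. In Panc-1, KRT7 lay between 2.40 and 4.19 TPM and EPCAM between 9.18 and 19.4 TPM. CDH1 was higher in treated PK-1 cells, at 270 and 385 TPM with RARγi-1 and RARγi-2 against 170 TPM in the control. KRT8 was lower, at 5967 TPM in the PK-1 control and at 3150 and 3779 TPM with RARγi-1 and RARγi-2, and at 3530, 656 and 566 TPM in the same libraries of Panc-1. The 6 ductal markers summed to between 1484 and 22498 TPM over the libraries. The part of such changes of very abundant transcripts in the relative values below was not tested. Where 3 values of a line are given in a row, they stand in the order control, RARγi-1, RARγi-2, and 4 changes in a row stand in the order PK-1 with RARγi-1 and RARγi-2, then Panc-1 with the same.

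The respiratory chain passes electrons from NADH (complex I) or succinate (complex II) through coenzyme Q, complex III and cytochrome c to complex IV, where oxygen is reduced. Complexes I, III and IV pump protons across the inner mitochondrial membrane, and complex V, the ATP synthase, uses the returning protons to make ATP. Most subunits are encoded in the nucleus, but all complexes except complex II also hold subunits made from mitochondrial DNA. All 13 protein-coding genes of the mitochondrial genome were listed at the floor in all 6 libraries. Every respiring cell uses these genes, so the listing gives no measurement of them, and only the nuclear-encoded partners are described.

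Most nuclear-encoded members were lower in treated cells than in the control of their line, by less than 2-fold. Changes are given as the log2 ratio of (TPM + 1), treated over control, a scale that understates the change of genes near 1 TPM. In PK-1, the 89 members above the floor had a median change of -0.26 with RARγi-1 and of -0.34 with RARγi-2. In Panc-1, the medians were -0.35 and -0.39. All entries that reached 5 TPM in any library, 12412 in number, served as the background, and the medians of those above the floor in the line were 0.15 and 0.01 for PK-1 and 0.09 and -0.03 for Panc-1, in the same order. In bulk RNA such as this, fewer cells of a kind and less RNA per cell cannot be told apart.

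With RARγi-1, 72 of all 95 members were lower than the control in PK-1, where 38.4% of the 12412 entries were lower. With RARγi-2 in PK-1, 72 of 95 were lower, beside 47.7% of all entries. In Panc-1, 69 of 95 were lower with RARγi-1 and 74 of 95 with RARγi-2, beside 42.1% and 49.3% of all entries. In all 4 comparisons at once, 60 of 95 members were lower and 5 were higher, beside 23.4% and 30.0% of all entries. The downward shift was thus widespread across the members and moderate in size, as the plot of cumulative shares shows.

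**Figure D1:**
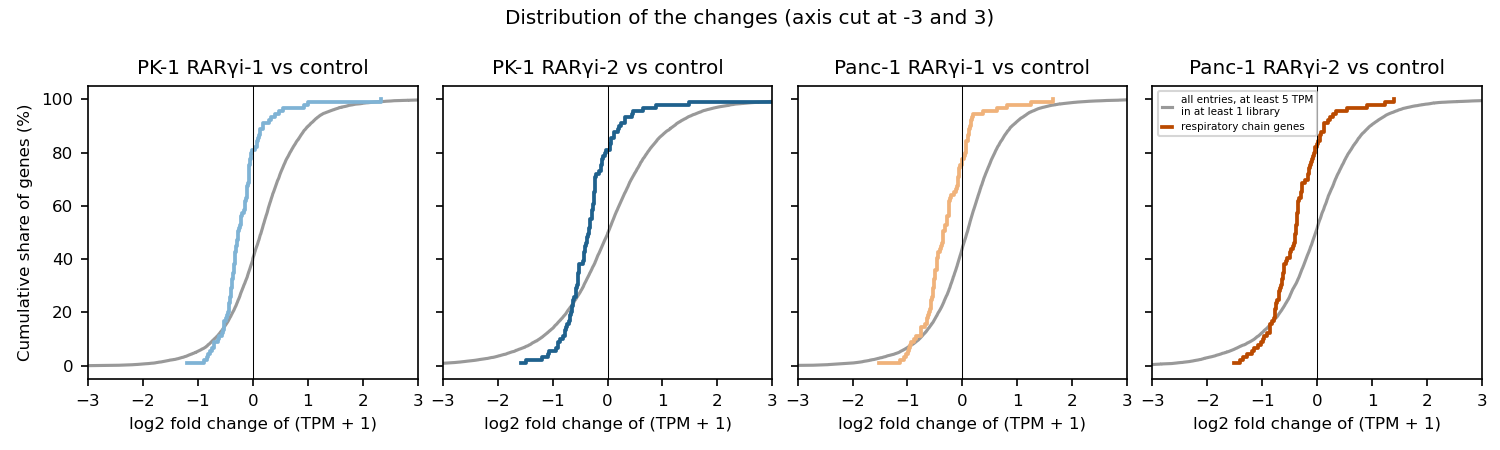
Cumulative share of genes (vertical axis, percent) against the log2 fold change of (TPM + 1) over the control of the cell line (horizontal axis), 1 panel per treated library, for the 89 measured respiratory chain genes (coloured) and for those of the 12412 background entries that were above the floor in the line (grey). The coloured curve crosses 50% at -0.26, -0.34, -0.35 and -0.39 from left to right, to the left of the grey curve in each panel.

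Few members changed by more than 2-fold. In PK-1, 1 member fell and 2 rose past 2-fold with RARγi-1, beside 5.2% and 9.91% of all entries. With RARγi-2 in PK-1, 5 fell and 2 rose, beside 13.5% and 12.9%. In Panc-1, 4 fell and 2 rose with RARγi-1, beside 6.51% and 7.86%, and 8 fell and 2 rose with RARγi-2, beside 12.0% and 9.02%. The share of members past 2-fold was therefore below that of all entries in each of the 4 comparisons and in both directions. After rescaling of the libraries by median ratios this held with 1 exception: with RARγi-1 in Panc-1, 8 of 95 members (8.42%) were past 2-fold lower, beside 7.53% of all entries. The nearest thing to a replicate error, the spread between the 2 treated libraries of a line over all entries, came to 0.41 in PK-1 and 0.32 in Panc-1 for a log2 fold change, and it also holds real differences between the inhibitors. Beyond it, 22 and 39 of 95 members were lower in PK-1 with RARγi-1 and RARγi-2, beside 17.6% and 30.0% of all entries. In Panc-1, 45 and 56 of 95 were lower beyond it, beside 23.7% and 32.3%. The change of many single genes, in PK-1 above all, thus lay within the spread between libraries. Over entries with a mean of at least 50 TPM in a line, the spread of a fold change was narrower, at 0.37 in PK-1 and 0.28 in Panc-1. Below, within and beyond the spread refer to the wider values, so some abundant genes called within it pass the narrower ones.

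At least once in the 4 comparisons, 11 members fell and 3 rose past 2-fold, beside 20.2% and 19.6% of all entries. At a threshold of 1.5-fold, 10 and 23 members fell in PK-1 with RARγi-1 and RARγi-2, beside 12.3% and 24.0% of all entries, and 3 and 4 rose, beside 23.0% and 23.7%. In Panc-1, 19 and 34 fell, beside 14.3% and 22.0%, and 4 and 3 rose, beside 19.4% and 18.9%. In PK-1 the members' share past 1.5-fold lower was near that of all entries, and in Panc-1 it was higher than theirs. In all 4 comparisons, 4 members fell past 1.5-fold, beside 5.76% of all entries: the ATP synthase genes ATP5A1, ATP5G1 and ATP5G3, and the complex IV assembly factor COX16. COX16 loses this place when a read-through transcript that shares its exons is added (-0.53 with RARγi-1 in PK-1). Past 1.5-fold higher in all 4 were COX7A2L and NDUFA4L2, 2 members, beside 8.18%.

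A model of cell line and treatment over all 6 libraries, fitted with limma, tested the mean change over both lines, with the 2 lines as the only replication and 2 residual degrees of freedom per gene. With RARγi-1, 2 of 89 members tested were lower at an adjusted p under 0.05, beside 1.55% of all entries, and 1 was higher, beside 3.46%. These were COX16 (mean log2 change -1.36, adjusted p = 0.033), ATP5G3 (-0.88, adjusted p = 0.0484) and, higher, COX7A2L (0.88, adjusted p = 0.0439). With RARγi-2, 23 were lower, beside 11.7% of all entries, and 3 were higher, beside 11.2%. The lowest adjusted p among them was that of ATP5G3 (-1.50, adjusted p = 0.00842), and the 3 higher ones were COX7A2L (0.89, adjusted p = 0.0176), COX19 (1.02, adjusted p = 0.0406) and NDUFA4L2 (1.35, adjusted p = 0.0423). Each of these changes had the same sign in both lines. NDUFA4L2 reached the 5 TPM needed to enter the fit only in treated libraries, with controls at 1.19 and 1.61 TPM. Its call therefore adds no support for a rise. Both contrasts share the control libraries. With RARγi-1, the COX7A2L call was lost after rescaling (adjusted p = 0.0531) and the COX16 call with the read-through transcript added (adjusted p = 0.0749).

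The summed TPM of the members shows the same shift on the scale of levels. In the PK-1 control, the 95 members summed to 22055 TPM, which is 2.21% of the TPM total. With RARγi-1 and RARγi-2 they summed to 18642 and 17459 TPM, or 84.5% and 79.2% of the control. In the Panc-1 control they summed to 27958 TPM, 2.80% of the total, and in treated cells to 21491 and 19977 TPM, or 76.9% and 71.5% of the control. Complex V stood lowest against its control in 3 of the 4 comparisons, at 74.3% and 66.3% in PK-1 and at 68.7% and 65.6% in Panc-1, and complex II, at 74.2%, stood lowest with RARγi-1 in PK-1. Complexes I and IV stayed nearest to the PK-1 control, complex I at 88.6% and 86.5% and complex IV at 92.1% and 86.2%.

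**Figure D2:**
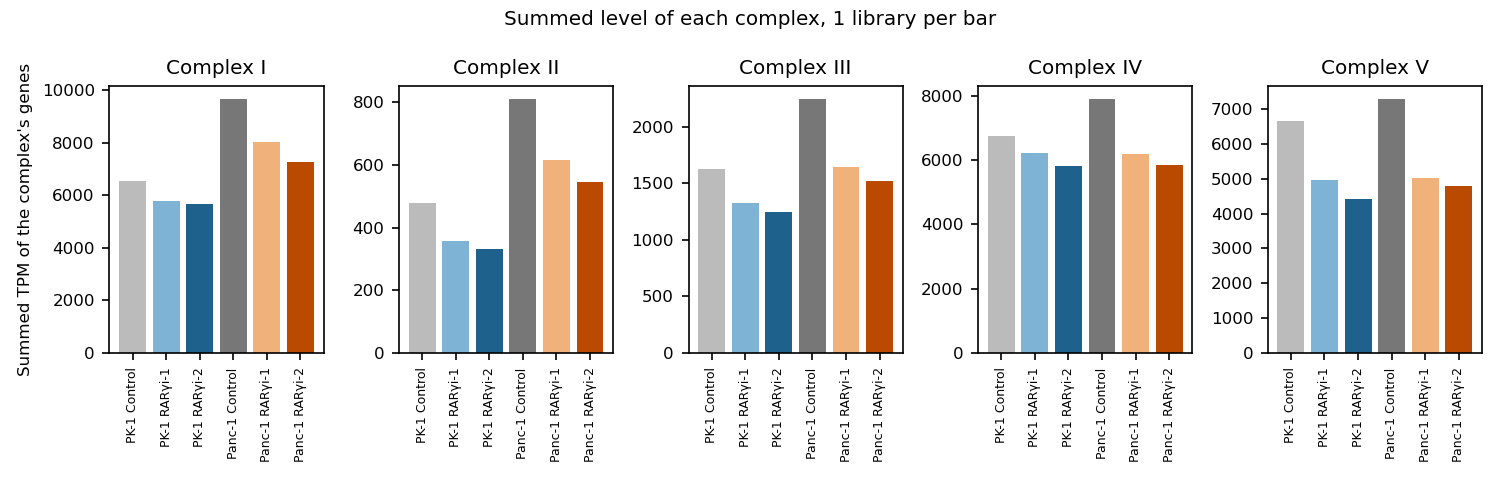
Summed TPM of the members of each complex (vertical axes, each from 0 with its own scale) in the 6 libraries (horizontal axis), 1 library per bar, so there is no error bar. In every complex both treated bars lie below the control bar of their line, and the complex V sum in PK-1 is 6668 TPM in the control and 4955 and 4418 TPM in treated cells.

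Untreated, the lines differed in these genes. Of 89 measured members, 63 were lower in the PK-1 control than in the Panc-1 control, beside 50.8% of all entries, with a median log2 ratio of -0.36 against -0.02 for all entries. Past 2-fold, 9 members were lower in PK-1 and 0 were higher, beside 17.3% and 16.1% of all entries. The difference lay mainly in complexes I, II and III, with medians of -0.40, -0.56 and -0.58, and was small in complexes IV and V, at -0.12 and -0.04. Treated Panc-1 cells still summed to 21491 and 19977 TPM, near the 22055 TPM of untreated PK-1 cells.

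The promoters of several members hold letters that match motifs of factors long tied to these genes. NRF1 and GABPA, an ETS family factor, are textbook activators of nuclear genes for mitochondrial proteins, and YY1 is a further one. RefSeq windows of GRCh38.p14, running from 250 bases before to 50 after a start, were found for 77 of 95 members, 95 windows in all. On either strand, the NRF1 motif (GCGCA, then any base, then GCGC) was in 20.0% of these windows, against 10.3% of the windows of genes with at least 5 TPM in a library and 5.78% of all 35116 windows. The ETS motif CCGGAAG was in 27.4%, 17.7% and 10.3% of the same sets, and the YY1 motif AAGATGGC in 14.7%, 4.90% and 2.89%. The cyclic AMP response element TGACGTCA was in 5.26%, 2.88% and 1.85%, and TGATGNAA, the letters of an element read by ATF4, in 2.11%, 1.98% and 3.62%. None of these 5 sets of letters contains another, and a match is a description, not a bound site. Members whose windows held the NRF1 motif had about the same change as the rest: the median of the mean change over the 4 comparisons was -0.30 in 18 genes with it and -0.30 in 59 without. For the ETS motif the medians were -0.27 in 24 genes and -0.31 in 53, and for YY1 -0.33 in 13 genes and -0.30 in 64.

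Below are the 150 bases before the start of 4 members that were lower in all 4 comparisons, SDHA and SDHD of complex II, UQCRH of complex III and ATP5A1 of complex V, and of the 2 that were higher in all 4 and above 10 TPM throughout in complex IV, COX7A2L and COX19. They are written 5′ to 3′ on the strand of the gene, with NRF1 and ETS matches in capitals.
SDHA, chr5:218170-218319, plus strand: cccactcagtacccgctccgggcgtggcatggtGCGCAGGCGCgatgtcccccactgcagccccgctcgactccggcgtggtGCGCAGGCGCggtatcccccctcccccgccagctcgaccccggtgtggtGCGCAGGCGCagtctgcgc
SDHD, chr11:112086723-112086872, plus strand: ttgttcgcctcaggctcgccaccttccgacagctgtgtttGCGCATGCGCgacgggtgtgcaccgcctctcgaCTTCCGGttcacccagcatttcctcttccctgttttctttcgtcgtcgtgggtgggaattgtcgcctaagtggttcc
UQCRH, chr1:46303548-46303697, plus strand: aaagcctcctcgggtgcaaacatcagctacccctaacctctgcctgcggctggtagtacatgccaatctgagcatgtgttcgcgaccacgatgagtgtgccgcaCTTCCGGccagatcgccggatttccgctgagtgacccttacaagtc
ATP5A1, chr18:46098297-46098446, minus strand: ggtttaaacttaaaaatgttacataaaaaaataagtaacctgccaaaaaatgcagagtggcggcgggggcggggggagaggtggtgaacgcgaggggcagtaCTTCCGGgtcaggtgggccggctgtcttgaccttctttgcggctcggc
COX7A2L, chr2:42361218-42361367, minus strand: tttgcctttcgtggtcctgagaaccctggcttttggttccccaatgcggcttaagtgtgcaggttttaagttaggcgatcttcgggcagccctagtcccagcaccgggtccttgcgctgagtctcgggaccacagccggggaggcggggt
COX19, chr7:975550-975699, minus strand: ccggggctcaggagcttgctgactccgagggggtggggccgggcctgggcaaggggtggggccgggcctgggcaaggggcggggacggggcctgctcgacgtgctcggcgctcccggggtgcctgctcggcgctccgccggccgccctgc
The SDHA stretch holds 3 matches of the NRF1 motif, and SDHD holds 1 NRF1 and 1 ETS match. UQCRH and ATP5A1 hold 1 ETS match each, and in all 3 genes the ETS letters read on the opposite strand, as CTTCCGG. For ATP5A1 and COX7A2L, 1 of 2 annotated starts is shown, and the window at the other ATP5A1 start holds none of these letters. No match to these letters lies in the stretches shown for COX7A2L and COX19. The genes were picked for display with their changes and matches known, and the windows of COX16, COX7B, NDUFB3, NDUFB6 and NDUFA2, which were lower in all 4 comparisons too, hold none of the 5 motifs.

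Complex I, the NADH dehydrogenase and the largest of the complexes, showed a small and uneven shift. Its median change was -0.15 and -0.25 for PK-1 and -0.24 and -0.37 for Panc-1 with RARγi-1 and RARγi-2. Of its 36 members, 22 were lower in all 4 comparisons and 1, NDUFS4, was higher in all 4, beside 23.4% and 30.0% of all entries. Its summed level was 88.6% and 86.5% of the control in PK-1, and 83.0% and 75.1% for Panc-1.

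The nuclear-encoded core subunits, which carry the flavin and the iron-sulfur clusters, did not move alike. NDUFS3 stood at 213 TPM in the PK-1 control, at 154 and 148 TPM with RARγi-1 and RARγi-2, and at 256, 174 and 164 TPM in the same libraries of Panc-1. It was thus lower in each treated library, with log2 changes of -0.46, -0.52, -0.55 and -0.64, beyond the spread in each line. NDUFS7 was at 99.7, 59.5 and 63.9 TPM in PK-1 and 128, 115 and 96.6 TPM in Panc-1, which is -0.73, -0.63, -0.15 and -0.41. NDUFV1, which binds the NADH, was at 160, 111 and 123 TPM in PK-1 and 341, 287 and 264 TPM in Panc-1. Its difference from the control lay beyond the spread only with RARγi-1 in PK-1 (-0.52) and RARγi-2 in Panc-1 (-0.37). NDUFS1, the largest of the core subunits, was lower in PK-1, at 60.9, 54.8 and 51.9 TPM, and higher in Panc-1, at 65.5, 74.8 and 75.2 TPM. All of these NDUFS1 differences lay within the spread. NDUFS8 ranged from -0.78 to 0.11 and NDUFV2 from -0.61 to 0.04, and the NDUFV2 value above 0, in PK-1 with RARγi-1, turned negative when libraries were rescaled by median ratios.

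Among the 29 accessory subunits, which surround the core and are needed for its assembly, NDUFB3 and NDUFS5 had the lowest mean change. NDUFB3 was at 158 TPM in the PK-1 control and 115 and 98.2 TPM in treated cells, and at 136 TPM in the Panc-1 control and 68.6 and 59.4 TPM in treated cells. Its change was -0.45 and -0.68 for PK-1 and -0.98 and -1.18 for Panc-1, so that it fell past 2-fold with RARγi-2 in Panc-1. NDUFS5 was at 790.2, 395 and 387 TPM in the control and treated libraries of Panc-1 (-0.999 and -1.03) and at 318, 235 and 204 TPM in those of PK-1 (-0.44 and -0.64). NDUFB6 fell past 2-fold in PK-1 with RARγi-2, from 106 to 50.2 TPM (-1.06), and NDUFA2 in Panc-1 with RARγi-2, from 130.1 to 58.0 TPM (-1.15). In each of these genes both treated libraries lay below the control in both lines. NDUFS4, an accessory subunit whose loss is a known cause of Leigh syndrome, went the other way, at 130.4, 161 and 179.9 TPM in PK-1 and at 126, 164 and 161 TPM in Panc-1. Its changes of 0.30, 0.46, 0.37 and 0.34 exceeded the spread except in PK-1 with RARγi-1. The most abundant complex I member in PK-1, NDUFB9, stayed within -0.04 to 0.15, and NDUFS6, the most abundant of the complex in the Panc-1 control, was at 818, 523 and 482 TPM there.

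**Figure D3:**
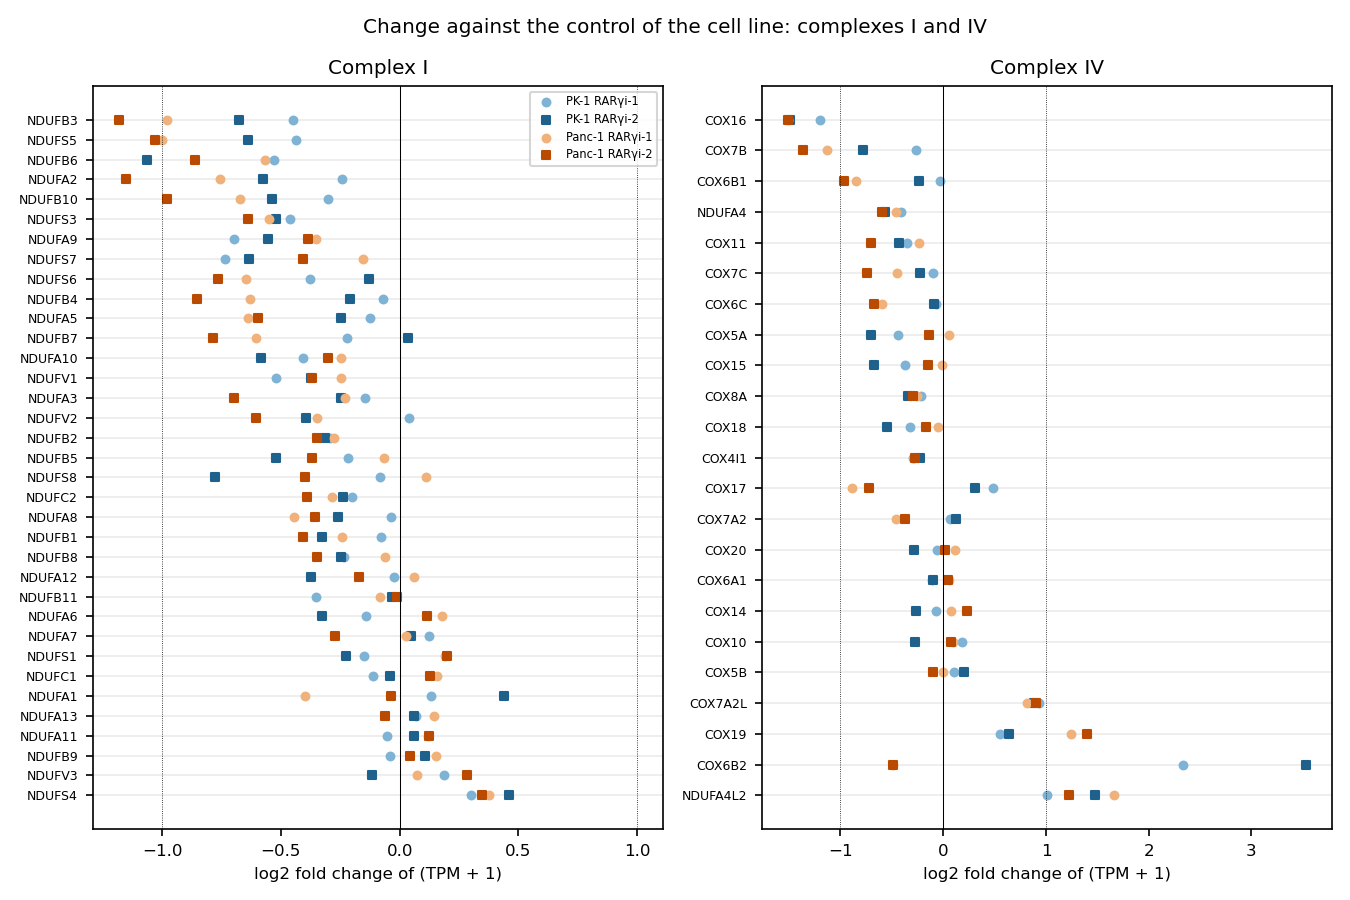
Log2 fold change of (TPM + 1) over the control of the cell line (horizontal axes, not the same range) for the measured members of complexes I and IV reported singly (vertical axes, ordered by the mean), 1 point per treated library; dotted lines mark 2-fold. Most complex I points lie between the lower dotted line and 0.46, while complex IV runs from -1.51 for COX16 to 3.53 for COX6B2.

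Complex II, succinate dehydrogenase, is the only complex with no subunit from mitochondrial DNA and is also an enzyme of the TCA cycle. All 4 members were lower in all 4 comparisons, beside 23.4% of all entries, and none passed 2-fold. The median change was -0.34 and -0.44 for PK-1 and -0.49 and -0.57 for Panc-1. SDHA, the flavoprotein that oxidises succinate, was at 129, 78.4 and 68.4 TPM in PK-1. In Panc-1 it was at 132, 88.7 and 84.1 TPM. Its changes of -0.71, -0.91, -0.57 and -0.64 were the lowest mean of the complex and beyond the spread in each library. SDHB, which carries the iron-sulfur clusters, was at 134, 106 and 105 TPM in PK-1 and at 333, 287 and 249.8 TPM in Panc-1. Only its change with RARγi-2 in Panc-1, -0.42, lay beyond the spread. The membrane anchors SDHC and SDHD had changes of -0.34 to -0.50 and of -0.33 to -0.78. SDHD, whose promoter stretch is printed above, was at 256, 172 and 149 TPM in Panc-1.

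Complex III, the cytochrome bc1 complex, had 8 of 9 members lower in all 4 comparisons, beside 23.4% of all entries. Its median change was -0.35 and -0.52 for PK-1 and -0.51 and -0.56 for Panc-1. The Rieske iron-sulfur protein UQCRFS1, the only catalytic subunit of the complex that the rule found, was at 267, 217 and 183 TPM in PK-1 and 422, 294 and 274 TPM in Panc-1. The hinge protein UQCRH was the most abundant member, at 451, 343 and 287 TPM in PK-1 and 752, 519 and 426 TPM in Panc-1, with changes of -0.40, -0.65, -0.53 and -0.82. Its near-identical copy UQCRHL, at 18.5 to 50.1 TPM, can share reads with it, so the split between them is uncertain. The core proteins UQCRC1 and UQCRC2 lay on opposite sides of the control in PK-1. UQCRC2 was at 133, 98.5 and 92.6 TPM there, and UQCRC1 at 204, 219 and 244 TPM. In Panc-1 both were lower, UQCRC1 at 264, 206 and 206 TPM and UQCRC2 at 257, 180.1 and 162 TPM. The UQCRC1 difference with RARγi-1 in PK-1, 0.10, lay within the spread and turned negative under the median-ratio rescaling.

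Complex V, the ATP synthase, was the complex with the lowest median change in PK-1, at -0.52 and -0.67, and stood at -0.49 and -0.55 in Panc-1. Of its 18 members, 15 were lower in all 4 comparisons, beside 23.4% of all entries. ATP5S was higher in all 4, beside 30.0%, and ATP5L2 was at the floor in all 6 libraries. The 15 include ATP5SL, which is no subunit. In the catalytic head, ATP5B (the beta subunit, which holds the catalytic sites) was at 1343, 759.7 and 704 TPM in PK-1 and 1382, 983 and 892 TPM in Panc-1. ATP5A1, the alpha subunit, was at 346, 222 and 205 TPM in PK-1 and 278, 164 and 153 TPM in Panc-1. Both were lower in each treated library by more than the spread, with changes of -0.82, -0.93, -0.49 and -0.63 for ATP5B and of -0.64, -0.75, -0.76 and -0.86 for ATP5A1. In the central stalk, which turns inside the head, ATP5D fell past 2-fold with RARγi-2 in PK-1, from 139.9 to 65.2 TPM (-1.09). ATP5E, the most abundant member of all in PK-1, was at 1440, 1306 and 1286 TPM there, a difference within the spread.

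The c-ring, the rotor driven by protons, is made of 1 mature protein that 3 genes encode, and these genes did not move alike. ATP5G3 (current symbol ATP5MC3, Entrez 518, chr2:175176258-175181710 in GRCh38.p14) was at 147, 82.0 and 48.6 TPM in the control, RARγi-1 and RARγi-2 libraries of PK-1. In Panc-1 it was at 131, 68.5 and 48.6 TPM. It fell past 2-fold with RARγi-2 in both lines (-1.58 and -1.41) and stood at -0.83 and -0.93 with RARγi-1. ATP5G1 was at 293, 191 and 127 TPM in PK-1 and 769.8, 397 and 410.4 TPM in Panc-1, and fell past 2-fold with RARγi-2 in PK-1 (-1.20). ATP5G2 was at 97.8, 91.0 and 73.0 TPM in PK-1 and 155, 148 and 148 TPM in Panc-1, with changes of -0.10, -0.42, -0.06 and -0.07. All but the second of these changes lay within the spread, and that one only just passed it.

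Of the small membrane subunits, which shape the dimer of the enzyme, ATP5J2 and ATP5L fell past 2-fold with both inhibitors in Panc-1. ATP5J2 was at 754.9, 359 and 310.0 TPM there (-1.07 and -1.28) and at 553, 382 and 332 TPM in PK-1 (-0.53 and -0.73). ATP5L was at 545, 266 and 256 TPM in Panc-1 (-1.03 and -1.09) and at 221, 176 and 144 TPM in PK-1 (-0.33 and -0.62). ATP5I, of the same group, was higher in PK-1, at 236, 312 and 270.0 TPM, and lower in Panc-1, at 418, 335 and 385 TPM. The 4 peripheral stalk genes, which hold the head still, were lower in all 4 comparisons, beside 23.4% of all entries. Their medians were -0.47 and -0.65 for PK-1 and -0.42 and -0.41 for Panc-1. ATP5S, a related protein that is no subunit, was at 7.77, 10.05 and 9.90 TPM in PK-1 and 6.38, 10.4 and 9.76 TPM in Panc-1.

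**Figure D4:**
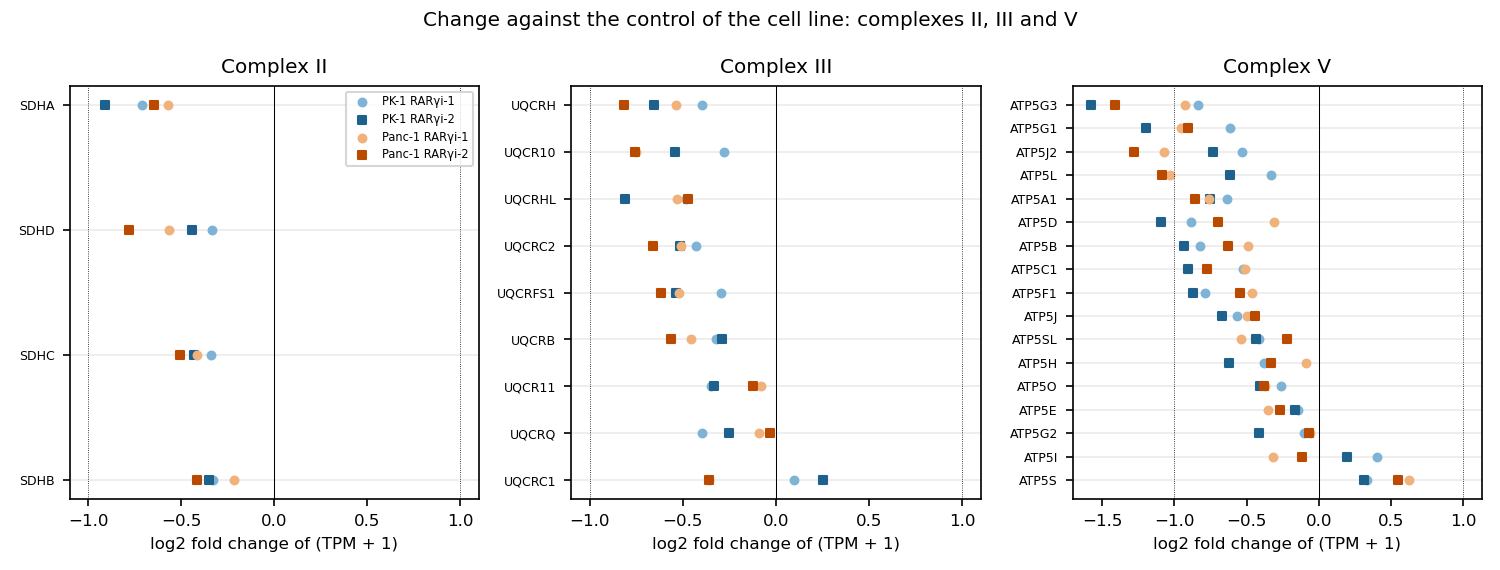
Log2 fold change of (TPM + 1) over the control of the cell line (horizontal axes) for each measured member of complexes II, III and V (vertical axes, ordered by the mean), 1 point per treated library; dotted lines mark 2-fold. All complex II points lie between -0.91 and -0.21, and in complex V the c-ring gene ATP5G3 lies lowest, with -1.58 and -1.41 for RARγi-2.

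Complex IV, cytochrome c oxidase, was the most mixed. Its median change was -0.08 and -0.24 for PK-1 and -0.24 and -0.27 for Panc-1 over 23 measured members. The median with RARγi-1 in Panc-1 depended on which members were counted: it was -0.45 over subunits alone and -0.01 with members at the floor included. Of 28 members, 11 were lower and 3 higher in all 4 comparisons, beside 23.4% and 30.0% of all entries. At the floor in all 6 libraries were 5 tissue isoforms (COX4I2, COX6A2, COX7A1, COX7B2 and COX8C). COX4I1, the common isoform of the subunit that COX4I2 replaces in lung, was at 706, 574 and 605 TPM in PK-1 and 525, 432 and 434 TPM in Panc-1. These differences, -0.22 to -0.30, lay within the spread. COX5A was lower in PK-1, at 483, 356 and 297 TPM (-0.44 and -0.70), and at 439, 457 and 398 TPM in Panc-1 (0.06 and -0.14). The value above 0 turned negative under the rescaling.

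Several small subunits of complex IV were lower mainly in Panc-1. COX7B fell past 2-fold with both inhibitors there, with 634, 289 and 246 TPM (-1.13 and -1.36), while in PK-1 it was at 584, 485 and 339 TPM (-0.27 and -0.78). COX6B1, the most abundant member of complex IV in the Panc-1 control, was at 1055, 584 and 539.6 TPM there (-0.85 and -0.97) and at 594, 579.9 and 504 TPM in PK-1 (-0.04 and -0.24). COX7C, the most abundant in the PK-1 control, was at 1118, 1046 and 954 TPM in PK-1 and 988, 721 and 588 TPM in Panc-1. COX17, the copper chaperone that delivers the metal to the complex, lay on opposite sides of the control in the lines. It was at 186, 260.3 and 231 TPM in PK-1 (0.48 and 0.31) and at 367, 198 and 221 TPM in Panc-1 (-0.88 and -0.73). These differences between the lines were not tested, since each line has 1 library per condition.

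COX16, an assembly factor (Entrez 51241, chr14:70325081-70359683 in GRCh38.p14), was the only member past 2-fold lower in all 4 comparisons, beside 2.19% of all entries. It was at 83.9, 35.8 and 29.3 TPM in PK-1 and 48.3, 16.3 and 16.2 TPM in Panc-1, with changes of -1.20, -1.49, -1.51 and -1.51. The read-through transcript SYNJ2BP-COX16, which shares exons with it, was listed at 2.47, 23.5 and 17.7 TPM in PK-1 and 1.20, 9.36 and 8.84 TPM in Panc-1. Reads of the shared exons may have been divided between the 2 entries, so the COX16 value is uncertain. The sum of both entries was 86.3, 59.3 and 47.0 TPM in PK-1 and 49.5, 25.7 and 25.1 TPM in Panc-1. Its changes of -0.53, -0.87, -0.92 and -0.95 no longer passed 2-fold in any comparison. The other read-through entries moved their members less: NDUFC2 with NDUFC2-KCTD14 gave -0.46, -0.50, -0.16 and -0.10 against -0.20, -0.24, -0.28 and -0.39 for NDUFC2 alone, and ATP5J2 still passed 2-fold in Panc-1 with ATP5J2-PTCD1 added (-1.05 and -1.26).

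A few members were higher after treatment. In all 4 comparisons 5 of 95 were higher, beside 30.0% of all entries, and 3 of these 5 belong to complex IV. COX7A2L, which helps join complexes III and IV into supercomplexes, was at 61.0 TPM in the PK-1 control and 118 and 113 TPM in treated cells. In Panc-1 it was at 78.0, 138 and 147 TPM. Its changes of 0.94, 0.88, 0.82 and 0.90 lay beyond the spread in each library and short of 2-fold. COX19, an assembly factor with a role in copper handling, was at 12.2, 18.4 and 19.7 TPM in PK-1 (0.55 and 0.65). In Panc-1 it rose past 2-fold with both inhibitors, from 11.8 to 29.3 and 32.8 TPM (1.24 and 1.40).

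NDUFA4L2, a homologue of NDUFA4, was the only member past 2-fold higher in all 4 comparisons, beside 2.71% of all entries. It was at 1.19, 3.42 and 5.13 TPM in PK-1 and 1.61, 7.23 and 5.11 TPM in Panc-1, so it passed 5 TPM only in treated libraries, and its changes ranged from 1.01 to 1.66. In RefSeq its span overlaps that of SHMT2, a serine metabolism enzyme. SHMT2 was at 205, 374 and 566 TPM in PK-1 and 132, 172 and 252 TPM in Panc-1. Its part in the NDUFA4L2 values was not tested. With the rescaling, the NDUFA4L2 change with RARγi-1 in PK-1 was 0.94, short of 2-fold. The common form NDUFA4 was lower throughout, at 162, 121 and 109 TPM in PK-1 and 229, 166 and 151 TPM in Panc-1. COX6B2, the testis form of COX6B1, was at the floor in the PK-1 control and at 9.06 and 22.1 TPM in treated PK-1 cells, past 2-fold in both (2.33 and 3.53, values that depend on where the floor lies). In Panc-1 it was at 1.81 TPM in the control and at the floor in both treated libraries. It counted as measured in PK-1 only through the treated libraries.

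**Figure D5:**
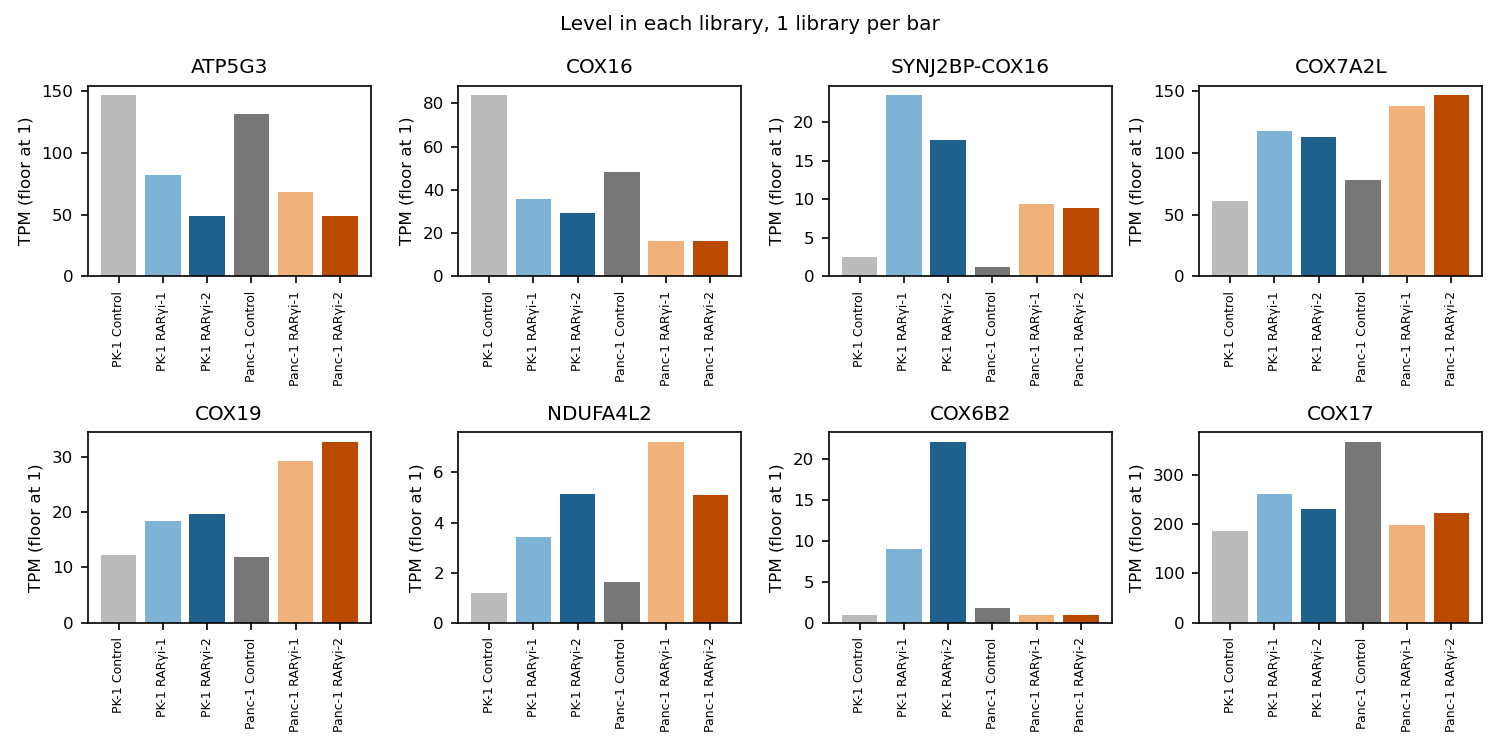
TPM (vertical axes, each from 0 with its own scale; values under 1 TPM are set at 1) of 8 entries in the 6 libraries (horizontal axis), 1 library per bar, so there is no error bar. ATP5G3 and COX16 are lower in all 4 treated libraries, the read-through SYNJ2BP-COX16, COX7A2L, COX19 and NDUFA4L2 are higher, and COX6B2 and COX17 go opposite ways in the 2 lines.

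Other genes of the pathway were read from lists drawn up with the members. Of 7 further respiratory chain and ATP synthase genes that the symbol rule does not reach, not all of them subunits, CYC1 encodes cytochrome c1. It was at 294, 208 and 178 TPM in PK-1 and 506, 369 and 324 TPM in Panc-1. The median change of these genes was -0.26 and -0.45 for PK-1, where 6 were above the floor, and -0.35 and -0.64 for Panc-1, where all 7 were. A list of 17 genes held TCA cycle enzymes, which feed the chain with NADH and succinate, and PDHA1, PDHB and DLAT of pyruvate dehydrogenase. Its median was -0.43 and -0.50 for PK-1 and -0.33 and -0.50 for Panc-1. In PK-1, 14 of 17 were lower with each inhibitor, beside 38.4% and 47.7% of all entries. In Panc-1, 16 of 17 were lower with each, beside 42.1% and 49.3%. Past 2-fold lower were 0 and 3 for PK-1, beside 5.2% and 13.5% of all entries, and 0 and 1 for Panc-1, beside 6.51% and 12.0%. The counts past 2-fold are few and near or below the shares of all entries, while those lower by any amount are above them. Citrate synthase CS was at 303, 159 and 113 TPM in PK-1 and 204, 126 and 113 TPM in Panc-1, and fumarase FH at 125, 65.1 and 53.7 TPM and at 168, 91.2 and 82.4 TPM.

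The assembly factors were less even. Of 14 for complex I, the median was -0.43 and -0.50 for PK-1 and -0.08 and -0.20 for Panc-1, with NDUFAF8 at -0.96, -1.43, -0.37 and -0.96 and NDUFAF2 at 0.41, 0.14, 0.87 and 0.88. Of 29 for complexes II to V, the median was -0.17 and -0.47 for PK-1 and -0.14 and -0.34 for Panc-1. Past 2-fold lower were 1 and 6 of 29 for PK-1, beside 5.2% and 13.5% of all entries. For Panc-1 there were 0 and 0, beside 6.51% and 12.0%. With RARγi-1 in Panc-1, 1 of 29 rose past 2-fold, beside 7.86%. LRPPRC, which steadies mitochondrial mRNAs, was at 144, 63.4 and 47.9 TPM in PK-1 and 114, 80.7 and 72.2 TPM in Panc-1. Among 13 coenzyme Q genes, PDSS1, which makes the tail of coenzyme Q, was at 31.0, 10.2 and 4.05 TPM in PK-1 and 16.8, 10.3 and 6.18 TPM in Panc-1, while COQ10B was higher, at 25.8, 54.8 and 72.1 TPM and at 32.1, 49.8 and 60.4 TPM. The medians of that list were -0.16, -0.07, -0.34 and -0.29.

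Regulators of mitochondrial biogenesis were mixed. PPARGC1A was at the floor in all 6 libraries. TFAM, which packs and transcribes mitochondrial DNA, was at 56.1, 25.2 and 13.9 TPM in PK-1 and 36.8, 24.2 and 20.1 TPM in Panc-1. NRF1 itself was at 10.6, 9.89 and 11.2 TPM in PK-1 and 12.5, 15.8 and 15.7 TPM in Panc-1, and GABPA at 7.16 to 10.4 TPM over all libraries. Over 13 measured regulators, the median was -0.33 and -0.66 for PK-1 and -0.16 and -0.17 for Panc-1, with 1 and 4 past 2-fold lower for PK-1, beside 5.2% and 13.5% of all entries, and 0 and 0 for Panc-1, beside 6.51% and 12.0%. Among 12 mitochondrial chaperones and proteases, medians were -0.08 and -0.24 for PK-1 and 0.18 and 0.23 for Panc-1. Lower were 7 and 7 of 12 in PK-1, beside 38.4% and 47.7% of all entries, and 6 and 4 in Panc-1, beside 42.1% and 49.3%. The protease LONP1 was higher, at 47.7, 76.3 and 106 TPM in PK-1 and 66.8, 157 and 185 TPM in Panc-1. The chaperones HSPE1 and TRAP1 were lower in all 4 comparisons. Of 8 measured carriers and channels, the ADP/ATP carrier SLC25A5 was at 1307, 724 and 559 TPM in PK-1 and 850.4, 552 and 416 TPM in Panc-1, and the medians of that list were -0.43, -0.40, -0.24 and -0.46.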

How the data were processed

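RNA-seq of 6 libraries (TruSeq Stranded mRNA) was used, 1 per condition. The authors deposited log2-transformed TPM with values under 1 TPM set to 1; the processing notes name hg38, and the aligner, counter and annotation are not given in the sources used here. TPM keeps no depth, so the depth is unknown and no interval is given. Values were returned to TPM, and log2 ratios of (TPM + 1), treated over the control of the line, were computed with Python 3.11.15, numpy 2.4.6 and pandas 2.3.3 (figures with matplotlib 3.10.9). A member was measured where any library of its line lay above the floor, and was said to rise or fall past 2-fold. The spread of a library is the median absolute deviation (scaled by 1.4826) between the treated libraries of a line, divided by the square root of 2. It was taken over entries of at least 5 TPM in any library of that line. The spread of a fold change is larger by the same root. Cell line and treatment were fitted over all 6 libraries to log2(TPM + 1) of the 12412 entries of at least 5 TPM in a library with limma 3.58.1 (empirical Bayes with trend, two-sided, Benjamini-Hochberg adjustment over all entries), a fit added after seeing the data whose residuals measure how far the lines differ in response. The fold code and this fit were tested on simulated data. Alternatives were other pseudocounts, median-ratio rescaling, other filters, 1.5-fold, subunits only and other placing of NDUFA4; removal of a GC and length trend and the addition of read-through TPM were chosen after seeing the data.

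Members and lists were chosen with earlier results of these data known. Named by rule were core subunits (1 member enters the counts and medians but is not reported singly here), the extremes and the most abundant members of each complex, tissue isoforms, members past 2-fold with both inhibitors in a line, and members opposite between lines beyond the spread; the others, including all genes of the wider lists, were chosen after their values were seen. Promoter windows, gene spans and current symbols came from RefSeq (GRCh38.p14), matched by Entrez ID, and transcript lengths and GC content from GENCODE.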

Additional observations from a re-analysis of the deposited data

Results flagged for a closer look

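In 13 members, both treated PK-1 libraries lay on one side of their control and both treated Panc-1 libraries on the other, 13 of 95 members beside 12.4% of all entries, which is near the background. With 1 library per condition, these differences between the lines were not tested. Each value is the mean log2 change in PK-1 minus that in Panc-1. Higher in treated PK-1 cells and lower in treated Panc-1 cells were COX6B2 (3.42), COX17 (1.20), UQCRC1 (0.53), ATP5I (0.52), COX7A2 (0.52), NDUFA1 (0.50) and COX5B (0.21). Lower in treated PK-1 cells and higher in treated Panc-1 cells were NDUFS1 (-0.38), NDUFA6 (-0.38), COX14 (-0.32), COX20 (-0.24), NDUFC1 (-0.22) and COX6A1 (-0.15). After median-ratio rescaling 8 of the 13 stayed opposite, and UQCRC1, COX7A2, COX14, NDUFC1 and COX6A1 did not. The COX6B2 value depends on the 1 TPM floor, at which its PK-1 control and both its treated Panc-1 libraries lie. COX6B2 was the only 1 of these members in which all 4 changes exceeded the spread of their line. In Panc-1 it reached only 1.81 TPM, and the spread was taken over entries of at least 5 TPM in the line. The Panc-1 spread thus does not cover COX6B2, and nothing is concluded from its passing it.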

How the results depend on the processing

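The median changes of all measured members and of each complex kept their sign in all 200 recomputed values. The spread of single genes is a loose measure for a median over many, so that no median moved by more than it says little about stability. The median of complex IV with RARγi-1 in Panc-1 moved most, between -0.45 (subunits alone) and -0.01 (genes at the floor counted). The median of all members in PK-1 lay between -0.37 and -0.22 for RARγi-1 and between -0.35 and -0.29 for RARγi-2, and that in Panc-1 between -0.44 and -0.28 and between -0.44 and -0.38. The GC and length trend moved medians by at most 0.07, with a median transcript length of 716 bases for members and 1776 for entries of at least 5 TPM, of which 91.7% had a length. Counts past 2-fold rest on few genes and moved in 18 of 72 recomputed counts. Rescaling, which shifted RARγi-1 in PK-1 by -0.11 and in Panc-1 by -0.09, gave 1 riser in the former and 8 fallers in the latter. With members of at least 10 TPM alone there was 1 riser in each comparison. Subunits alone gave 0 fallers with RARγi-1 in PK-1, and 1 riser in Panc-1 with each inhibitor. At 1.5-fold, 10 and 23 members fell for PK-1 and 19 and 34 for Panc-1, and 4 rose with RARγi-2 in PK-1 and 4 with RARγi-1 in Panc-1. Removing the trend gave 2 fallers and 1 riser with RARγi-1 in PK-1, and adding read-through TPM gave 0 fallers there. Apart from those settings whose construction removes genes or lowers the threshold, the cause was not tested. In the limma fit with cell line as a block, added after seeing the data, members lower with RARγi-1 numbered 2, and 1 with read-through TPM added, and members higher numbered 1, and 0 after rescaling; with RARγi-2, 23 and 3 became 22 and 3 after rescaling. Within a line no replicate could be left out.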

Other observations

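Among the entries set aside, COX10-AS1 (current symbol COX10-DT) was at 6.79, 5.49 and 2.98 TPM in the control, RARγi-1 and RARγi-2 libraries of PK-1. In those of Panc-1 it was at 8.83, 4.59 and 4.32 TPM. Its RefSeq span ends before that of COX10 begins, so the antisense label rests on the listed name. COX10, the heme farnesyltransferase gene it neighbours, was at 19.0, 21.6 and 15.5 TPM and at 19.1, 20.4 and 20.2 TPM. The other 3 entries with antisense names stayed under 10 TPM, with NDUFA6-AS1 (current symbol NDUFA6-DT) highest at 6.12 TPM. Of the 166 dropped pseudogenes, 2 were above the floor in a library, and ATP5EP2, a copy of ATP5E, was at 43.5, 42.1 and 37.1 TPM in PK-1 and at 34.5, 24.9 and 24.4 TPM in Panc-1.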
